A study of Mus musculus with 4 samples.

Results

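The genes described here are 8 mouse genes of retinoid signalling and retinoid handling, of 45777 in the deposited expression table. They are the retinoic acid receptor genes Rara, Rarb and Rarg, the retinoid X receptor genes Rxra, Rxrb and Rxrg, the retinoic acid binding protein gene Crabp2 and the retinaldehyde reductase gene Dhrs3. The set was chosen by symbol with the TPM and count ratios of these same libraries in view, so its ratios describe the libraries and were not tested. The libraries were made from C2C12 myotubes, multinucleate muscle cells formed by a mouse myoblast line when serum is lowered.

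There were 4 libraries in 4 groups, with 1 library per group. They are titled EPS (a stimulation that the labels do not spell out), control for EPS, clenbuterol (an agonist of the beta-2 adrenergic receptor), and control for clenbuterol. All the cultures were kept in DMEM with 2% horse serum, and 1 cell line gave every library. The treatment field names 30 ng/ml clenbuterol for all 4 libraries, the controls and the EPS pair included, and no group has a stated duration. In the EPS pair the titles and the names of the deposited data are crossed: the file of the EPS title is named for a control, and the file of the EPS control title is named for EPS. The groups here go by title, as the titled-EPS library and the titled-EPS control, and each EPS direction is opposite if the file names hold. With 1 library per group there is no estimate of the spread between cultures, so no difference was tested. All intervals cover counting error only.

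Retinol enters cells and is oxidized to retinaldehyde and then to retinoic acid. Retinoic acid is carried to the nucleus by CRABP2 and binds a retinoic acid receptor (RAR) that sits on DNA with a retinoid X receptor (RXR). The RXRs also pair with the vitamin D, thyroid hormone, liver X and peroxisome proliferator-activated receptors. Rarb, Crabp2, Dhrs3, the retinol uptake receptor gene Stra6 and the retinoic acid hydroxylase gene Cyp26a1 are known in many cell types as genes that retinoic acid induces. In myoblasts retinoic acid is known to promote myogenic differentiation.

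A classical binding site of an RAR and RXR pair is a direct repeat of a 6-base unit with 5 bases between the copies. The consensus unit AGGTCA and its known variants, namely the unit AGTTCA, the unit GGGTCA and the unit GGTTCA, were searched on both strands of RefSeq promoter windows of GRCm38.p6, each with 250 bases before and 50 after a gene's start. A single unit is common and was found in 43.7% of the 32851 windows. The direct repeat spaced by 5 bases was found in 32 windows, or 0.0974% of them. Of the 8 genes 7 had an entry, with 16 windows, and 1 window held such a repeat, that of Rarb. Crabp2 had no entry and so was not searched. Of 67 other genes of the retinoid pathway 47 had an entry, with 59 windows, and 1 window held the repeat, that of Cyp26a1. The 250 bases before both starts are shown because these were the repeats found in the 8 genes and the pathway lists; they were not chosen from all genes with a repeat. Each is written 5′ to 3′ on the strand of its gene, with the units of the repeat in capitals.
Rarb: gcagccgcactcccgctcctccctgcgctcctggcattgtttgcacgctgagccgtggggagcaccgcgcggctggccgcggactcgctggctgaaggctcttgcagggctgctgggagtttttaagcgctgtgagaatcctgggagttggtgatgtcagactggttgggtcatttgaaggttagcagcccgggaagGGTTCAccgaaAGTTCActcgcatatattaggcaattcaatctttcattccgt
Cyp26a1: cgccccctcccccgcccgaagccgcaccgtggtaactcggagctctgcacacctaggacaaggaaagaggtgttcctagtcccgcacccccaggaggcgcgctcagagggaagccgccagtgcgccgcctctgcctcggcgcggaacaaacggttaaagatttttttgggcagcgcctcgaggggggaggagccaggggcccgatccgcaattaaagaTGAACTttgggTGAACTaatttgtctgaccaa

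The Rarb stretch is chr14:16575477-16575726 on the minus strand. Its repeat, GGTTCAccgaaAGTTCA, lies 53 to 37 bases before the start, and a further single unit (GGGTCA) lies 83 to 78 bases before it. This start is internal to the Rarb locus, which the table places at chr14:16430839-17082331, and counts per gene do not say from which start the transcripts came. The Cyp26a1 stretch is chr19:37697558-37697807 on the plus strand. Its repeat lies on the minus strand, 32 to 16 bases before the start, and reads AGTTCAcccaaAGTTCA there. A match of letters is a description and does not show that a receptor was bound.

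The table gives gene levels as TPM, a share of all transcripts corrected for length, together with estimated read counts. A gene was taken as measured in a comparison when either library of the pair had a TPM of 1 or more. The main ratio was that of TPM plus 1 on the log2 scale, and a gene was called when that ratio reached 2-fold. Folds given with an interval compare CPM, which are counts set to a common library size and not corrected for length, and carry an exact Clopper-Pearson 95% interval. Total counts were 35597074 in the titled-EPS library and 32640884 in the titled-EPS control, and 33148483 in the clenbuterol library and 33408083 in its control. All 10 myotube markers, among them Myog, Ckm and Acta1, reached a TPM of 1 in every library. None of the 6 adipocyte markers and none of the 5 endothelial markers reached that level in any library. Of the 5 immune markers Ptprc, Adgre1 and Cd3e were at 0, and Cd68 alone reached a TPM of 1, at 4.70 in the titled-EPS library, 3.29 in the titled-EPS control, 2.79 in the clenbuterol library and 4.88 in its control. Of the 6 fibroblast markers 3 reached it in both EPS libraries and 2 in both clenbuterol libraries, with summed TPM between 215 and 236.

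The retinoic acid receptors are the proteins through which retinoic acid acts on transcription. Rarg was the most abundant of them in all 4 libraries, Rara was the next, and Rarb was the least. Rarb stood higher in the titled-EPS library than in the other 3 libraries, while Rara and Rarg differed most between the pairs of cultures.

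Rarb (gene ID 218772) had a TPM of 4.22 in the titled-EPS library and 1.40 in the titled-EPS control. It had 1.33 in the clenbuterol library and 1.34 in its control. The 3 lower libraries lay close together, at 60 counts in the titled-EPS control, 61 in the clenbuterol library and 62 in the clenbuterol control, against 201 counts in the titled-EPS library. By title Rarb was 3.02-fold higher in EPS (2.26 to 4.10), with a log2 ratio of TPM plus 1 of 1.12. The log2 ratio was 0.81 with FPKM and 0.53 with a pseudocount of 5, both positive and under the 2-fold call. Against the next library in order, clenbuterol, it was 2.97-fold higher (2.22 to 4.02). Clenbuterol and its control did not differ beyond counting error in Rarb, at a ratio of 1.01 (0.699 to 1.47). This interval is wide because the counts were low.

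Rara (gene ID 19401, chr11:98927800-98974942, plus strand) had a TPM of 19.3 in the titled-EPS library and 27.2 in the titled-EPS control. It had 13.1 in the clenbuterol library and 15.3 in its control. Both libraries of the EPS pair thus lay above both libraries of the clenbuterol pair. By title Rara was 1.37-fold lower in EPS (1.26 to 1.49), and it was 1.17-fold lower in clenbuterol than in its control (1.05 to 1.30). The ratio between the control libraries was larger than both: the EPS control was 1.72-fold above the clenbuterol control (1.57 to 1.89).

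Rarg (gene ID 19411, chr15:102234938-102257522, minus strand) had a TPM of 78.0 in the titled-EPS library and 77.4 in the titled-EPS control. It had 54.0 in the clenbuterol library and 51.3 in its control. The EPS pair again lay above the clenbuterol pair. By title the EPS ratio was 1.05 (0.997 to 1.10), an interval that includes 1, and Rarg was 1.07-fold higher in clenbuterol (1.01 to 1.14). The EPS control was 1.45-fold above the clenbuterol control (1.37 to 1.53).

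**Figure D1:**
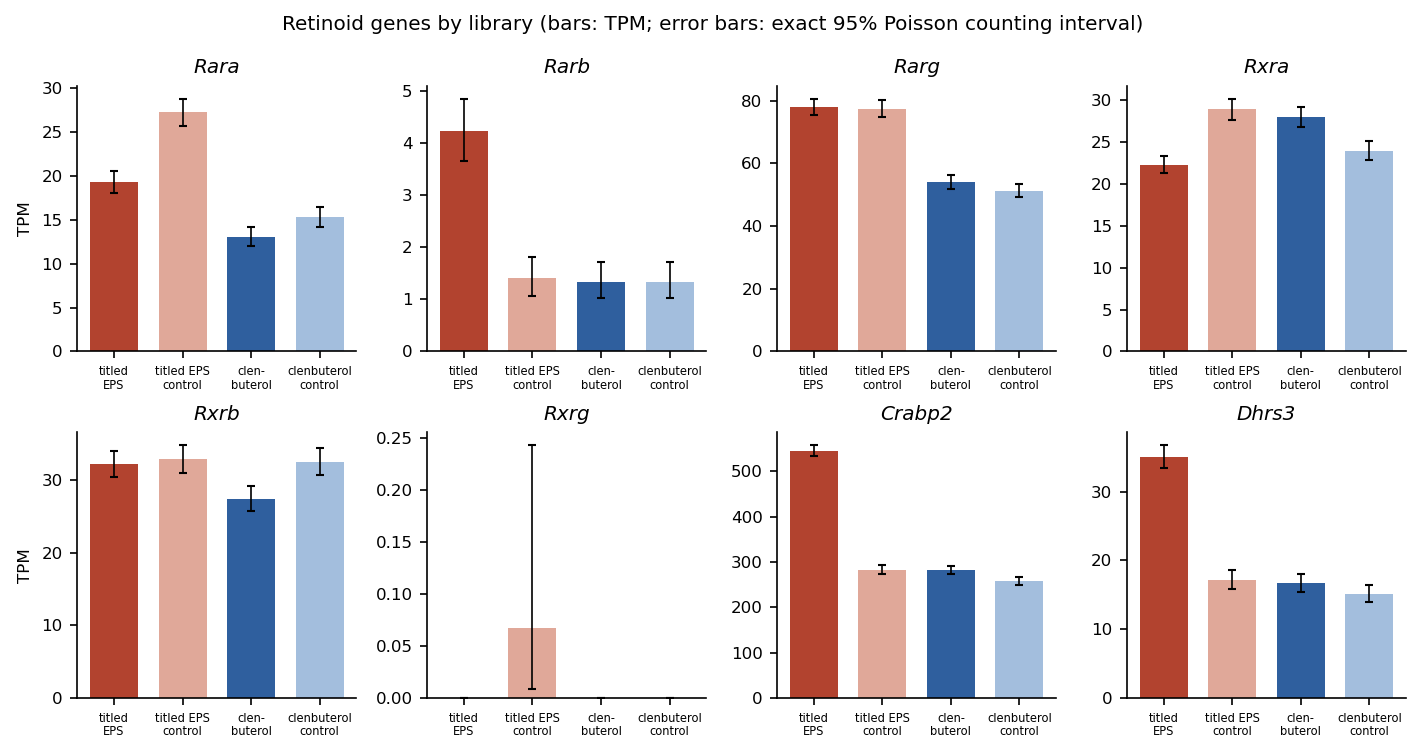
Level of each of the 8 genes in each of the 4 libraries, as TPM on a linear axis that starts at 0, with the exact Poisson 95% interval of the count as the error bar (no bar where the count was 0). Rarb, Crabp2 and Dhrs3 are high in the titled-EPS library and near one another in the other 3 libraries, and Rara and Rarg are higher in both libraries of the EPS pair than in the clenbuterol pair.

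Summed over the 3 genes, the RAR transcripts came to a TPM of 101.5 in the titled-EPS library and 106.1 in the titled-EPS control. They came to 68.4 in the clenbuterol library and 67.9 in its control, so within each pair the sums lay close to each other. Rarg made up 76.8% of the sum in EPS and 73.0% in its control by title, and 78.9% in clenbuterol and 75.5% in its control. Rara made up 19.0% in EPS against 25.7% in its control by title, and 19.1% in clenbuterol against 22.5% in its control. The share of Rarb was 4.16% in EPS against 1.32% in its control by title. It was 1.95% in clenbuterol and 1.97% in its control.

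The RXRs are the partners that RARs need for DNA binding. Rxra (gene ID 20181, chr2:27676445-27763319, plus strand) had a TPM of 22.3 in the titled-EPS library and 28.9 in the titled-EPS control. It had 28.0 in the clenbuterol library and 24.0 in its control. The libraries titled EPS and clenbuterol control were the low ones. By title Rxra was 1.27-fold lower in EPS (1.19 to 1.35), and it was 1.18-fold higher in clenbuterol than in its control (1.11 to 1.26). The control libraries differed by as much as the clenbuterol pair, with the EPS control 1.18-fold above the clenbuterol control (1.11 to 1.26).

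Rxrb (gene ID 20182, chr17:34031812-34038403, plus strand) had a TPM of 32.1 in the titled-EPS library and 32.9 in the titled-EPS control. It had 27.4 in the clenbuterol library and 32.5 in its control. The clenbuterol library was the low one, 1.19-fold below its control (1.09 to 1.29) and 1.11-fold below the titled-EPS library (1.02 to 1.21). The other 3 libraries did not differ beyond counting error, and the EPS ratio by title was 0.973 (0.898 to 1.06).

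Rxrg (gene ID 20183, chr1:167598362-167639623, plus strand), known as an RXR gene of adult skeletal muscle and heart, had 0 counts in the titled-EPS library and 2 counts in the titled-EPS control. It had 0 counts in the clenbuterol library and 0 in its control. Its TPM was at or under 0.0673 throughout. A count of 0 allows up to 3 counts, so no difference in Rxrg was detectable at this depth and no fold was computed.

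Of the summed RXR TPM, Rxra made up 40.9% in EPS against 46.8% in its control by title, and 50.5% in clenbuterol against 42.4% in its control. The RXR sum was 54.4 in the titled-EPS library, 61.8 in the titled-EPS control, 55.4 in the clenbuterol library and 56.5 in its control. Rxrb made up nearly all of the rest in each library.

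**Figure D2:**
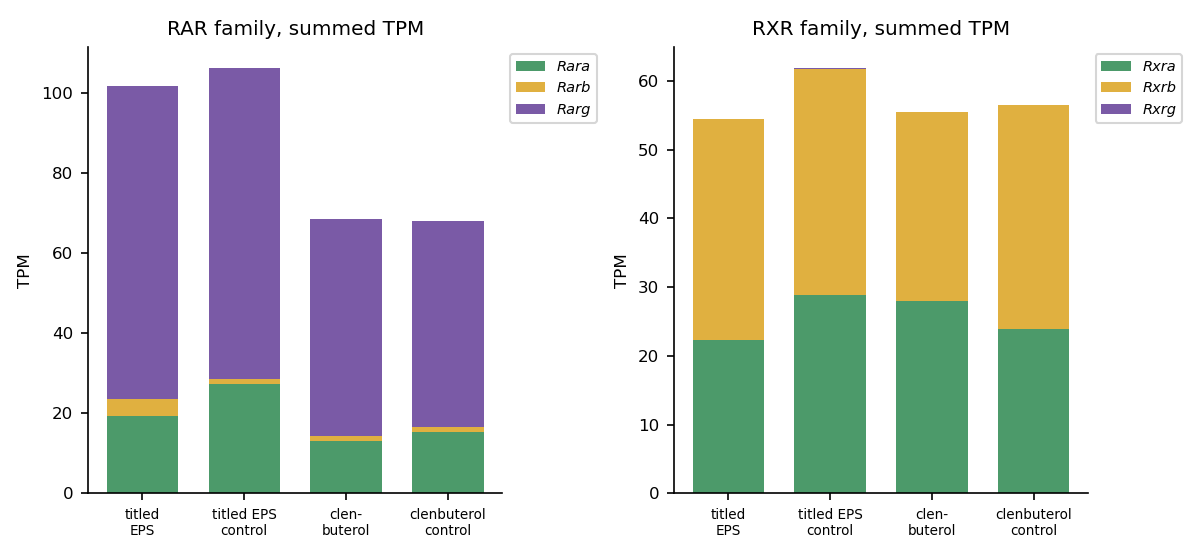
Summed TPM of the RAR genes (left) and of the RXR genes (right) in each library on linear axes that start at 0, divided by gene; Rxrg is too low to be seen. Rarg takes most of the RAR sum in every library, and the slice of Rarb is 4.16% in the titled-EPS library against 1.32% to 1.97% in the other 3 libraries.

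The genes for retinoid handling showed the same high library as Rarb. CRABP2 delivers retinoic acid to RARs in the nucleus. Crabp2 (gene ID 12904, chr3:87948693-87953372, plus strand) was the most abundant of the 8 genes, with a TPM of 545 in the titled-EPS library and 282.5 in the titled-EPS control. It had 282 in the clenbuterol library and 258 in its control. By title it was 1.98-fold higher in EPS (1.90 to 2.06), and its log2 ratio of TPM plus 1 was 0.95, just under the 2-fold call. It was 1.90-fold above the next library, clenbuterol (1.82 to 1.97). Clenbuterol was 1.11-fold above its own control (1.06 to 1.16), which is close to the 1.06-fold by which the EPS control exceeded the clenbuterol control (1.01 to 1.11).

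DHRS3 reduces retinaldehyde back to retinol and so limits the formation of retinoic acid. Dhrs3 (gene ID 20148, chr4:144892534-144928209, plus strand) had a TPM of 35.1 in the titled-EPS library and 17.2 in the titled-EPS control. It had 16.7 in the clenbuterol library and 15.1 in its control. Its estimated count was 1791 in the titled-EPS library, 589 in the titled-EPS control, 623 in the clenbuterol library and 574 in its control. The titled-EPS library stood alone in both units, but the size depended on the unit. By title Dhrs3 was 2.05-fold higher in EPS as TPM, 1.99-fold as TPM plus 1, and 2.74-fold as CPM (2.50 to 3.02). The 1.99-fold ratio lies just under the 2-fold call. The cause of this gap between units was not tested. Dhrs3 was 2.59-fold above the next library, clenbuterol, in CPM (2.36 to 2.84), and the other 3 libraries did not differ beyond counting error. Its locus lies within Vps13d on the opposite strand, and whether the counting used strand is not given in the sources used here. Vps13d itself had a TPM of 14.7 in the titled-EPS library and 15.1 in the titled-EPS control, and 16.4 in the clenbuterol library and 16.0 in its control. Apart from loci under a TPM of 1.3 within Rara and Rarb, no other gene overlapped the 8 genes.

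**Figure D3:**
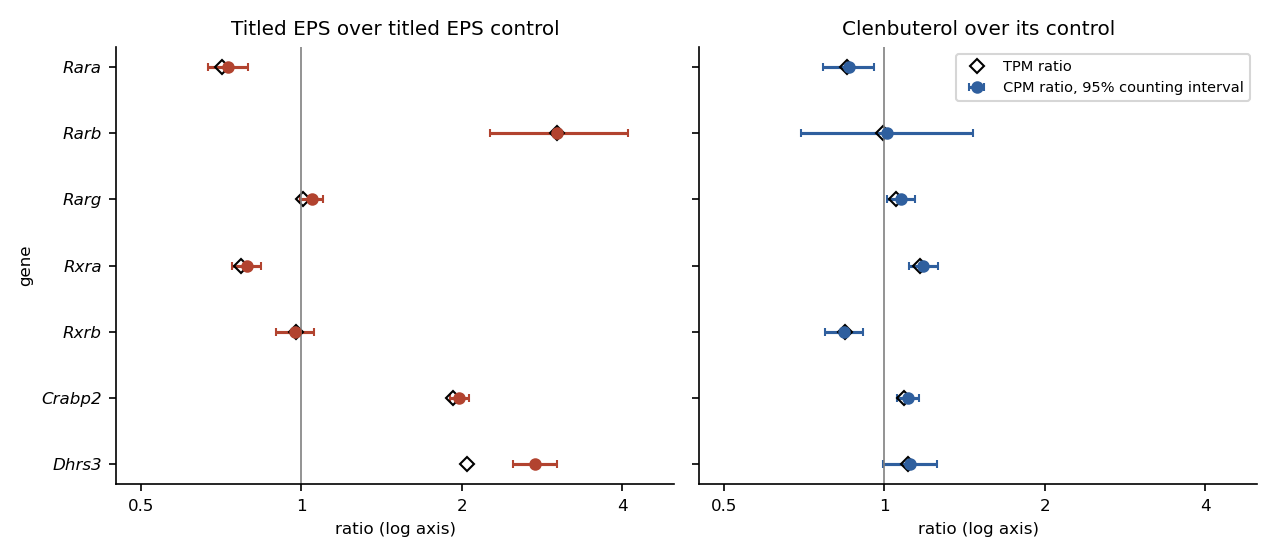
Ratios of the 7 measured genes on a log axis, the titled-EPS library over the titled-EPS control (left) and clenbuterol over its control (right); open diamonds are TPM ratios, and filled points are CPM ratios with exact 95% counting intervals. Rarb, Crabp2 and Dhrs3 lie near or above 2 for EPS by title, with the CPM and TPM ratios of Dhrs3 apart, and all 7 genes lie near 1 for clenbuterol.

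Of the 8 genes, 7 were measured in each comparison, all but Rxrg. For EPS by title 1 of 7 was called, Rarb, where 2.01% of 13828 measured genes were called in either direction and 0.868% were called higher and 1.14% lower. At a 1.5-fold ratio 3 of 7 were higher and none was lower, where 6.58% of measured genes passed it, 2.34% higher and 4.24% lower. The median log2 ratio of the 7 was 0.01, against -0.02 over all measured genes, since Rara and Rxra lay below 0 and Rarg and Rxrb near it. Among the 8, the genes just inside and just outside the 2-fold call were Rarb at 1.12 and Dhrs3 at 0.99. For clenbuterol 0 of 7 were called, where 1.52% of 13788 measured genes were, 1.00% as higher. None reached 1.5-fold either, where 4.44% of measured genes did. Their log2 ratios ran between -0.24 for Rxrb and 0.22 for Rxra, with a median of 0.07 against -0.01 over all measured genes.

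Rarb, Crabp2 and Dhrs3 were at least 1.5-fold higher in the titled-EPS library than in each of the other 3 libraries. Of 14213 genes measured in any library, 99 had that pattern, or 0.697%. None of the 7 was as far below the other libraries there, where 1.22% of genes were. None of the 7 stood apart in the titled-EPS control, where 1.22% of genes did above and 0.753% below. None did in clenbuterol, where 1.10% of genes did above and 0.528% below, or in its control, where 0.415% did above and 0.345% below. These 3 genes were among those that led to the set being described, so their number is no independent evidence of anything shared. In bulk RNA, fewer cells of a type and less RNA per cell cannot be told apart. Muscle markers differed between these libraries too. The summed TPM of the 10 myotube markers was 21096 in the titled-EPS library and 25164 in the titled-EPS control, with 9 of 10 below 0 in log2 ratio and a median of -0.35. It was 31001 in the clenbuterol library and 30850 in its control. The 8 markers of undifferentiated myoblasts summed to 200.3 in the titled-EPS library and 149.5 in the titled-EPS control, and 6 of the 7 measured were above 0. Their log2 ratios were 0.85 for Id1, 0.71 for Id2, 0.39 for Myf5, 0.33 for Id3, 0.27 for Ccnd1 and 0.15 for Myod1. Pax7 was the measured marker below 0, at -0.41. For EPS by title 6280 of all 13828 measured genes were above 0 and 7548 below. The myoblast markers summed to 348.9 in the clenbuterol library and 240.3 in its control. There 6 of 8 were above 0 and 2 below, where 6395 and 7393 of all measured genes were. Hey1 at 2.25 and Id3 at 1.66 were the 2 called, beside 1.52% of all measured genes. Id2 was at 0.34, Id1 and Myod1 were at 0.03, Myf5 at -0.18 and Ccnd1 at -0.23. Pax7 was above 0 and was not called. The part of the muscle markers in the retinoid ratios was not tested.

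The wider pathway was followed with lists of 68 further genes for synthesis, breakdown, uptake and response, of which 67 were in the table and 32 were measured in each comparison. By title 2 of 32 were called in EPS, with Stra6 higher and Aldh1a3 lower, beside 2.01% of all measured genes. The median log2 ratio of the 32 was -0.004. In clenbuterol 0 of 32 were called, beside 1.52%, with ratios between -0.46 and 0.45 and a median of 0.006.

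Uptake of retinol gave the gene called higher. Stra6, the membrane receptor through which cells take up retinol, had a TPM of 2.40 in the titled-EPS library and 0.54 in the titled-EPS control. It had 1.86 in the clenbuterol library and 1.83 in its control. Here it was the titled-EPS control that stood apart, on the low side, unlike Rarb, Crabp2 and Dhrs3. Stra6 was 4.43-fold higher in EPS by title (2.81 to 7.28), on 113 against 23 counts. The list for uptake, storage and transport had 4 of 17 genes measured, all 4 above 0 in EPS by title. Of all 13828 measured genes 6280 were above 0. The list's genes besides Stra6 were Scarb1, Dgat1 and Fabp5, at log2 ratios of 0.05, 0.10 and 0.32.

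Of the 20 genes for retinoic acid synthesis 10 were measured. In EPS by title 0 were called higher and 1 lower, beside 0.868% and 1.14% of all measured genes, with a median of -0.004. Aldh1a3, a retinaldehyde dehydrogenase that makes retinoic acid, had a TPM of 0.69 in the titled-EPS library and 2.41 in the titled-EPS control. It had 2.09 in the clenbuterol library and 2.02 in its control, so the titled-EPS library was the low one. Aldh1a3 was 3.38-fold lower in EPS by title (2.32 to 5.05), on 37 against 113 counts. Its log2 ratio of TPM plus 1 was -1.01, just past the 2-fold call. Aldh1a2, the main embryonic enzyme of this step, had 0 counts in all 4 libraries. Of the 3 genes for breakdown, Cyp26b1 had a log2 ratio of -0.02. Cyp26a1, whose repeat is shown above, had a TPM of 4.09 in the titled-EPS library and 1.94 in the titled-EPS control. It had 1.83 in the clenbuterol library and 2.22 in its control, and was not called. Its log2 ratio of TPM plus 1 was 0.79 in EPS by title, and in CPM it was 2.19-fold higher (1.55 to 3.14) on 114 against 47 counts.

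Genes with the repeat lay on both sides of 0. The table held 31 of them, and 6 were measured in each comparison. In EPS by title Rarb and Cyp26a1 had the positive log2 ratios, 1.12 and 0.79, and the other 4 lay below 0. These were Gm32838 at -0.66, Prss27 at -0.47, Blvrb at -0.30 and LOC102633156 at -0.08. The median of the 6 was -0.19. In clenbuterol 0 of the 6 were called, beside 1.52% of all measured genes, and the median was -0.09.

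The list of genes known to respond to retinoic acid shares Stra6, Cyp26a1 and Cyp26b1 with these lists. In EPS by title 19 of 30 were measured, 1 was called higher, 0 were called lower, and the median was -0.02. Of all measured genes 0.868% were called higher and 1.14% lower. At 1.5-fold 4 of the 19 were higher and 1 was lower, beside 2.34% and 4.24% of all measured genes. Its lowest ratio was that of Hoxa3, a homeobox gene of axial patterning, with a TPM of 2.50 in the titled-EPS library and 5.73 in the titled-EPS control. It had 2.10 in the clenbuterol library and 1.72 in its control, so the titled-EPS control was the high one. Hoxa3 had a log2 ratio of -0.94. Tgm2, the tissue transglutaminase gene, was chosen after its values were seen. It had a TPM of 102 in the titled-EPS library and 59.9 in the titled-EPS control, and 95.6 in the clenbuterol library and 81.3 in its control, so only the titled-EPS control was low. In clenbuterol 18 of the 30 were measured, 0 were called, beside 1.52% of all measured genes, and the median was 0.12. The lowest was Angptl4 at -0.46 and the highest Zfp703 at 0.45.

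**Figure D4:**
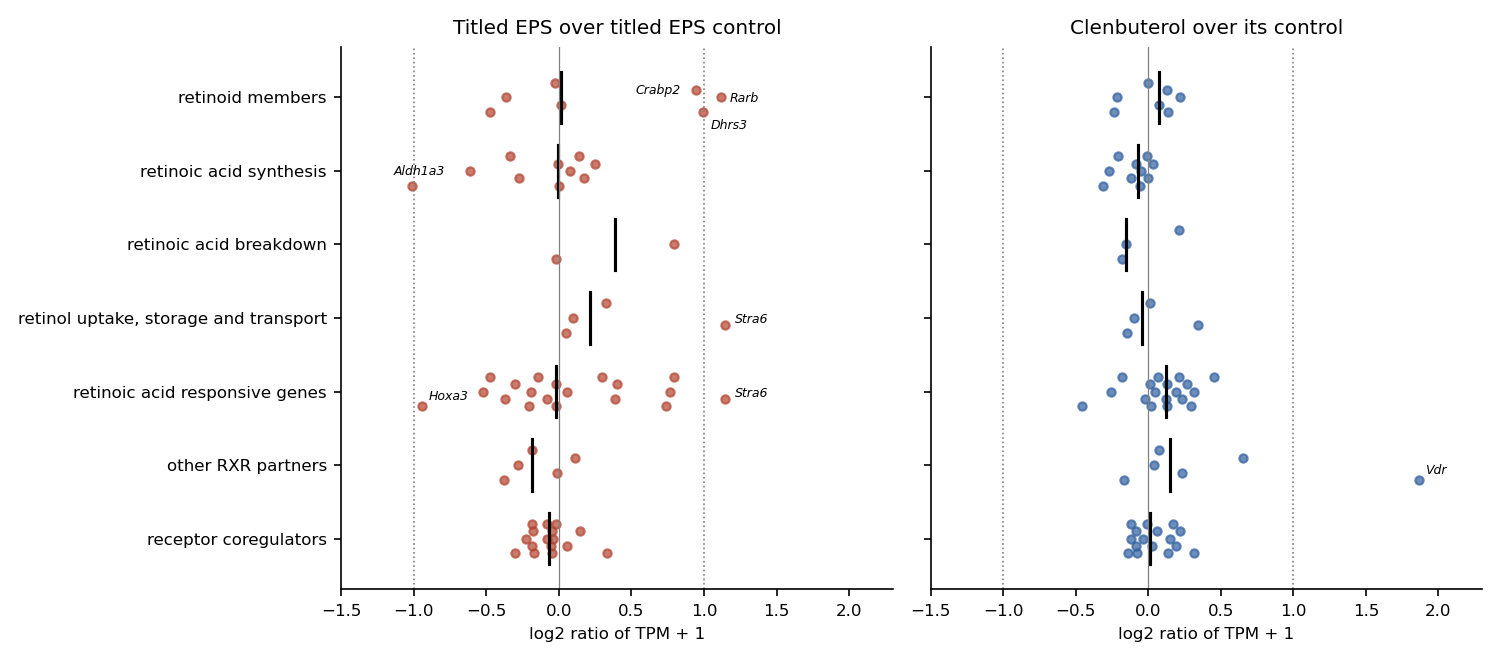
Log2 ratio of TPM plus 1 for each measured gene of 7 lists, the titled-EPS library over the titled-EPS control (left) and clenbuterol over its control (right); black bars are list medians and dotted lines mark the 2-fold call. The medians lie near 0 for most lists, the named points are the outlying genes, and Vdr at 1.87 is the one gene of these lists called for clenbuterol.

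The list of other partners of RXR and the list of cofactors that receptors recruit gave 1 called gene between them. Vdr, the vitamin D receptor gene, had a TPM of 84.6 in the clenbuterol library and 22.5 in its control. It had 26.8 in the titled-EPS library and 35.1 in the titled-EPS control, so the clenbuterol library stood alone. Vdr was 3.82-fold higher in clenbuterol (3.60 to 4.05), with a log2 ratio of 1.87. It was 1 called gene of the 6 RXR partners measured there, beside 1.52% of all measured genes, and its level in clenbuterol exceeded those of Rxra and Rxrb in TPM. In EPS by title 0 of 5 partners were called, beside 2.01% of all measured genes, with a median of -0.19. The NR4A receptors, of which NR4A1 and NR4A2 can also pair with RXR, were kept as a list of their own. All 3 were called higher in clenbuterol, beside 1.00% of all measured genes. Their log2 ratios were 2.68 for Nr4a1, 3.27 for Nr4a2 and 3.81 for Nr4a3, larger than that of Vdr. In EPS by title Nr4a1 and Nr4a2 were measured, at -0.59 and -0.41, and neither was called, beside 2.01% of all measured genes. All 16 coregulator genes, such as the corepressor gene Ncor1 and the coactivator genes Ncoa1 and Ncoa2, were measured in each comparison and none was called. Of all measured genes 2.01% were called in EPS by title and 1.52% in clenbuterol, so few calls among 16 would be usual. Their log2 ratios ran between -0.30 for Sin3a and 0.33 for Trim24 in EPS by title, with 13 of 16 below 0. Of all 13828 measured genes 7548 were below 0 there. In clenbuterol the coregulator ratios ran between -0.14 for Med1 and 0.31 for Nrip1.

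Dhrs3 had the widest range over the 4 libraries, 1.16 in log2(TPM plus 1), among those of the 8 genes that reached a TPM of 5 in any library. The 5 genes of 10455 candidates whose pattern lay nearest to it, by the Euclidean distance between the 4 centred log2 values, were Snord104, Crabp2, Gpr39, Snord32a and Mir682. Crabp2 was the second nearest, at a distance of 0.07. Gpr39, a zinc-sensing receptor gene, lay at 0.16 with a TPM of 12.3 in the titled-EPS library and 6.14 in the titled-EPS control, and 6.52 in the clenbuterol library and 5.77 in its control. Snord104, Snord32a and Mir682 rested on at most 21 counts in any library, and small RNAs are poorly captured by libraries made from poly(A) RNA. With 4 libraries the distance is a description only.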

How the data were processed

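RNA of 4 C2C12 myotube cultures was extracted with ISOGEN and made into strand-specific mRNA libraries from 1 ug of total RNA, per the labels' protocols. Reads were aligned with HISAT2 to mm10, per the submitters' processing notes. No source used here names the abundance program, its annotation or its strand setting. The authors deposited estimated counts, coverage, FPKM and TPM per gene, for each library and in a joint table. The joint table was used, and its TPM differed by more than 0.001 from the single tables in at most 3 genes per library. In 26 gene symbols that had become dates, the symbol was restored from the gene ID.

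Log2 ratios were taken of TPM with a pseudocount of 1 where TPM was at least 1 in 1 library of the pair. CPM used TMM library sizes (edgeR 4.0.16 in R 4.3.3) and exact Clopper-Pearson 95% intervals of the counts. The interval code was run on simulated counts with counting error only and plain library totals. That run cannot test the intervals against spread between cultures. No replicates exist, so no test was run. From each list every called gene was named, otherwise up to 2 highest and 2 lowest ratios; exceptions are stated. The members and lists were chosen with earlier results of these data known, and some genes of these lists are not reported here. Promoter windows are from RefSeq (GRCm38.p6).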

Additional observations from a re-analysis of the deposited data

How the results depend on the processing

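No paired analysis was possible because each group has 1 library, and leaving out a library would leave no comparison. The log2 ratio of Rarb, the called gene among the 8, kept its sign under every setting that gave it a value; signs of the other called genes were not compared across settings. The number of the 8 genes called for EPS by title, 1 as reported, was 2 with a pseudocount of 0.1 and 0 with a pseudocount of 5. It was 1 from FPKM, where Crabp2 was called at a log2 ratio of 1.002 and Rarb was not, at 0.81. From CPM it was 2 with TMM library sizes, 3 with plain totals and 2 with DESeq2 size factors. It was 0 with a TPM of at least 5, which leaves Rarb out, and 3 at 1.5-fold. For clenbuterol the number of the 8 genes called was 0 under every one of these settings. The number of other pathway genes called for EPS by title, 2 as reported, was 5 with a pseudocount of 0.1, 0 with a pseudocount of 5, 0 from FPKM, 0 with a TPM of at least 5, and 7 at 1.5-fold. Of all genes, 278 were called for EPS by title and 209 for clenbuterol. For EPS by title this was 571 with a pseudocount of 0.1, 45 with a pseudocount of 5, 97 from FPKM, 113 from CPM with TMM library sizes, 111 with plain totals, 113 with DESeq2 size factors, 112 with a TPM of at least 5, and 910 at 1.5-fold. For clenbuterol it was 450 with a pseudocount of 0.1, 43 with a pseudocount of 5, 64 from FPKM, 74 from CPM with TMM library sizes, 69 with plain totals, 74 with DESeq2 size factors, 76 with a TPM of at least 5, and 612 at 1.5-fold. The cause was not tested beyond the construction of each setting, since a higher pseudocount shrinks low ratios and a stricter minimum tests fewer genes. Over all settings the log2 ratio for EPS by title ran between 0.53 and 1.52 for Rarb, 0.86 and 1.43 for Dhrs3 and 0.94 and 1.00 for Crabp2. Low counts limit Rarb, at 60 to 62 counts in 3 libraries, and Rxrg, at 0 to 2 counts.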
